A study of Homo sapiens with 4 samples.

Results

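In ARP1, a human multiple myeloma cell line labelled as bone marrow, the genomic regions bound by STAT5A were mapped by ChIP-seq, in which an antibody pulls down a protein with its DNA and the DNA is sequenced. The regions described here are the peaks that the deposited lists credit to microRNA genes. Members were chosen by gene symbol alone, as every peak whose credited symbol starts with MIR followed by a digit or with MIRLET. This rule took 933 of 31227 peaks (2.99%) of the YTHDF2 knockdown (KD) list, credited to 451 symbols, and 2035 of 55269 peaks (3.68%) of the wild-type (WT) list, credited to 670 symbols. In all 747 symbols were found, and 746 of them were in the RefSeq gene table.

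The study set ARP1 cells with YTHDF2 knocked down against wild-type ARP1 cells. Each group had 1 library precipitated with an antibody to STAT5a (abcam, ab32043) and 1 input library, 4 libraries in all, from which the authors made 1 peak list per group. How the knockdown was made, whether the line is a clone, any treatment of the cells and what kind of control the WT cells are were not given in the sources used here. With 1 list per group, no difference between KD and WT has a replicate check and none was tested. The files hold no read counts, so depth is unknown, and a longer WT list cannot be told apart from a more deeply sequenced or better enriched WT library.

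MicroRNAs are short RNAs cut from a hairpin in a longer transcript. Bases 2 to 8 of the mature strand, the seed, pair with target messenger RNAs and lead to their repression. Some hairpins lie inside protein-coding genes and are made from those genes' transcripts, and others have a noncoding host transcript, whose symbol often ends in HG. The host genes counted below are those microRNA symbols that end in HG. STAT5A is a transcription factor that enters the nucleus after cytokine signalling through JAK kinases and binds the palindrome TTCNNNGAA as a dimer. YTHDF2 is a cytoplasmic reader of N6-methyladenosine that promotes the decay of methylated transcripts. The lists credit each peak to 1 gene and give its distance from that gene's start, and this credit is an assignment and not a measure of control.

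The mature strands below come from fixed lists of blood, myeloma and tumour microRNAs, since the account of binding returns to these loci. In both lists the microRNA gene, or its host gene, had a peak within 1 kb of the credited start. For miR-155-5p, miR-193b-3p, miR-29b-3p, miR-29c-3p and let-7b-5p that peak was at the host gene and did not reach the hairpin. All mature sequences are RefSeq's on GRCh38.p14, written 5′ to 3′ with the seed in capitals. The first pair shares the seed CAGUGCA although its hairpins lie on chromosomes 7 and 17.
miR-148a-3p: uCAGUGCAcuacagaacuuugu
miR-152-3p: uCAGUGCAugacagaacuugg
miR-142-3p: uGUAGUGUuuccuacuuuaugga
miR-142-5p: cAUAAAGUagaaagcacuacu
miR-155-5p: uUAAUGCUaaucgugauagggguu
miR-193b-3p: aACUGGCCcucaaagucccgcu
miR-29b-3p: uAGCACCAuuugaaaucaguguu
miR-29c-3p: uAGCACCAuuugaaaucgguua
let-7b-5p: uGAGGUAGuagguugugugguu

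The MIR17HG transcript carries 6 hairpins, and its mature strands fall into seed groups. Strands miR-17-5p and miR-20a-5p share AAAGUGC, miR-18a-5p has AAGGUGC, and miR-19a-3p and miR-19b-3p share GUGCAAA.
miR-17-5p: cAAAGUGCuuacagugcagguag
miR-20a-5p: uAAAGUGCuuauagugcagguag
miR-18a-5p: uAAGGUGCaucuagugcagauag
miR-19a-3p: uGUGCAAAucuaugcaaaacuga
miR-19b-3p: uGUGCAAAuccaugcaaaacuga
miR-92a-3p: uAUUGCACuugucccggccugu

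Another set comes from the hairpins under the highest peaks of either list, and from MIR210, whose hairpin lies under the same peak as the start of its host gene.
miR-4479: cGCGCGGCcgugcucggagcag
miR-2277-3p: uGACAGCGcccugccuggcuc
miR-2277-5p: aGCGCGGGcugagcgcugccaguc
miR-3652: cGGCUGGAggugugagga
miR-3181: aUCGGGCCcucggcgccgg
miR-210-3p: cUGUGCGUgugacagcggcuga

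Of the 154 genes with a peak within 1 kb in both lists, 14 are host genes, which have no mature entry of their own and are left out of this count. Mature entries were found for 125 of the others, giving 170 strands with 166 distinct seeds, where the whole RefSeq table holds 2545 strands with 1915 distinct seeds. A smaller set repeats fewer seeds by its size alone, so these counts are not compared. A seed was shared between genes in 3 cases, that of miR-148a-3p and miR-152-3p and the 2 printed here, CUGGGCA and GGGCUGG.
miR-5189-5p: uCUGGGCAcaggcggauggacagg
miR-3187-5p: cCUGGGCAgcguguggcugaagg
miR-5001-5p: aGGGCUGGacucagcggcggagcu
miR-762: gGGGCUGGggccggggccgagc

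Most of the 933 KD and 2035 WT members did not lie at a microRNA. Only 179 of the 933 KD members (19.2%, exact 95% interval 16.7 to 21.9) reached within 1 kb of the credited start, against 49.9% of all KD peaks. In WT the count was 379 of 2035 (18.6%, 16.95 to 20.4), against 38.9% of all WT peaks. Intervals throughout are Clopper-Pearson and cover only the error of counting. The median distance from the nearest peak edge to the credited start was 15251 bp in KD (quartiles 2352 and 53880) and 11855 bp in WT (2005 and 40860), where the medians over all peaks were 1024 bp in KD and 3304 bp in WT. Peaks credited to lincRNA and antisense genes, the other noncoding class in the lists, reached within 1 kb in 26.3% of 2226 KD peaks and 23.3% of 3816 WT peaks.

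Distal intergenic peaks made up 357 KD members (38.3%, against 21.4% of all KD peaks) and 690 WT members (33.9%, against 22.1% of all WT peaks). Intronic peaks numbered 236 in KD (25.3%, against 15.4%) and 511 in WT (25.1%, against 18.2%). Exonic peaks numbered 62 in KD and 161 in WT. Of the farthest peaks, 244 KD members (26.2%, against 13.1%) and 437 WT members (21.5%, against 12.1%) lay beyond 50 kb of the start they were credited to.

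Members seldom lay at protein-coding promoters. Outside chromosome 8, which was not used here for protein-coding starts, 78 of 895 KD members (8.72%, 6.95 to 10.8) came within 1 kb of a protein-coding start, against 37.2% of all such KD peaks. In WT 98 of 1970 members (4.97%, 4.06 to 6.03) did so, against 24.2%. A peak at a protein-coding start that is credited to that gene cannot be a member. The choice of members by symbol thus lowers these shares, by an amount that was not tested. Over the credited hairpin lay 108 of 865 KD members (12.5%, 10.4 to 14.9) and 214 of 1930 WT members (11.1%, 9.72 to 12.6). The 68 KD and 105 WT members credited to host genes or to transcripts longer than 200 bp were not counted in this share.

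Fold enrichment, the authors' linear ratio for each peak, was low for most members and very high for a few. In KD the median was 4.21 (95% interval 4.08 to 4.28), against 4.35 over all KD peaks, and in WT it was 5.53 (5.43 to 5.63), against 6.0 over all WT peaks. Folds of at least 20 were reached by 11 KD members (1.18%, against 3.63% of all KD peaks) and by 33 WT members (1.62%, against 4.62% of all WT peaks). Each of these 11 KD and 33 WT peaks overlapped a peak of the other list. The same share over all peaks of such fold was not counted, so this is not read as particular to members. The denominator of this ratio is unknown, so folds are read within a list only.

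**Figure D1:**
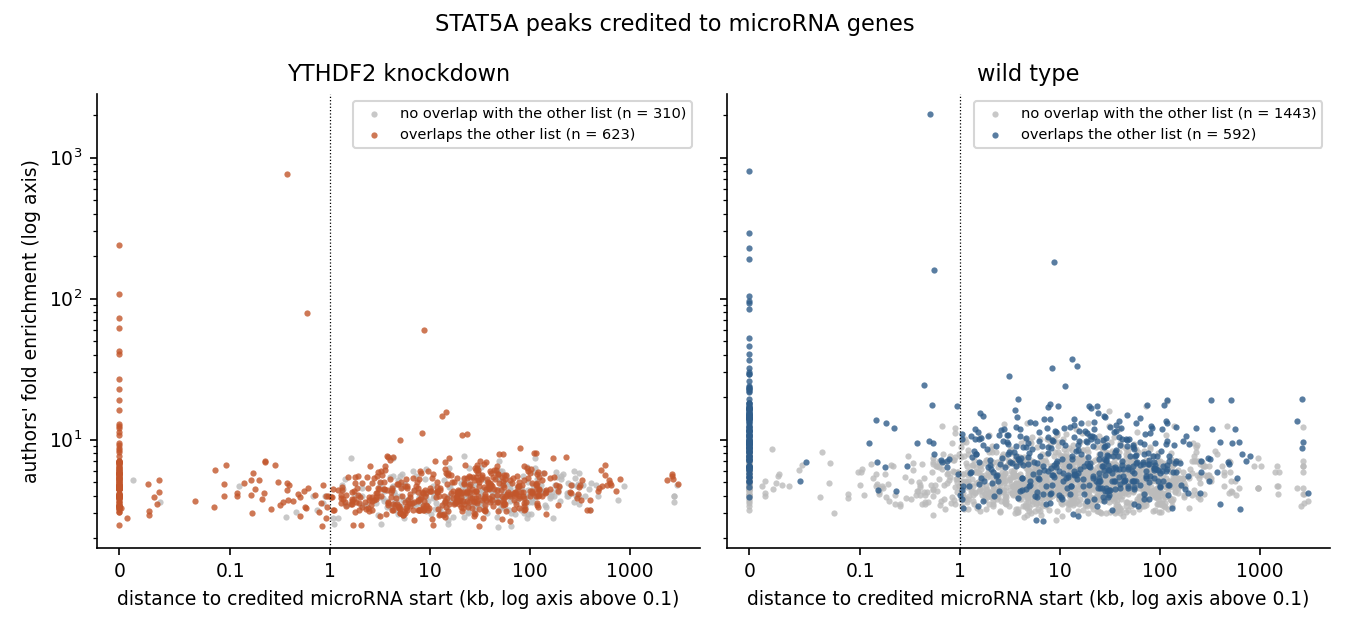
Authors' fold enrichment (log axis) of each microRNA-credited peak against its distance to the credited start (kb, logarithmic above 0.1), in YTHDF2 knockdown (left) and wild type (right). Coloured points overlap a peak of the other list (623 in KD, 592 in WT) and grey points do not (310 in KD, 1443 in WT); the dotted line marks 1 kb, and the high folds sit mainly at distance 0.

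MIR1302-3, a copy of a multi-copy family, led both lists with a fold of 771 in KD at chr2:113583466-113584542 and 2034 in WT at chr2:113583594-113584598. These peaks lay upstream of the hairpin, at -370 bp in KD and -498 bp in WT. Another copy, MIR1302-2, had a fold of 78.5 in KD at chr19:70958-71383 and 159 in WT at chr19:70957-71424. MIR1302 and MIR6859 are multi-copy families. No alignments were available, so whether reads under these peaks could come from another copy was not tested, and which copy is bound is uncertain.

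Single-copy microRNAs followed, and several of their peaks also held a protein-coding start. The MIR4479 hairpin lay under a peak of fold 239.6 in KD at chr9:136885821-136887247 and of fold 806 in WT at chr9:136885872-136887490. That peak also held a start of TRAF2, an adaptor of tumour necrosis factor receptors. MIR3652 shared its peak with the start of HSP90B1, an endoplasmic reticulum chaperone, at fold 72.7 in KD and 192 in WT. The peak over MIR3181 spanned the start of CYLD, a deubiquitinase that restrains NF-κB signalling, at fold 42.2 in KD (chr16:50741673-50742669) and 228 in WT (chr16:50741541-50742702). MIR7706 (fold 40.5 in KD and 103.7 in WT) lay at a start of AKAP13, and MIR3615 (fold 19.0 in KD and 96.3 in WT) at a start of NHERF1. For these 5 genes the peak cannot be assigned to the microRNA rather than to the protein-coding promoter.

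Other high peaks had no protein-coding start within 1 kb. MIR2277 had a peak over its hairpin of fold 108 in KD at chr5:93620329-93621660 and 294 in WT at chr5:93620426-93621658. MIR4738, within UNK, had fold 62.1 in KD and 92.4 in WT. The peak credited to MIRLET7A1 lay far upstream, at -8731 bp in KD (chr9:94165586-94167221, fold 60.2) and -8763 bp in WT (chr9:94165636-94167189, fold 181), and was classed as exonic. The peak at MIR210HG, host of the hypoxia-induced miR-210, had fold 26.7 in KD (chr11:567995-569611) and 84.6 in WT (chr11:567526-569759) and covered both the host start and the MIR210 hairpin. MIR1302-3, MIR4479 and MIR2277 ranked as the first 3 in both lists.

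**Figure D2:**
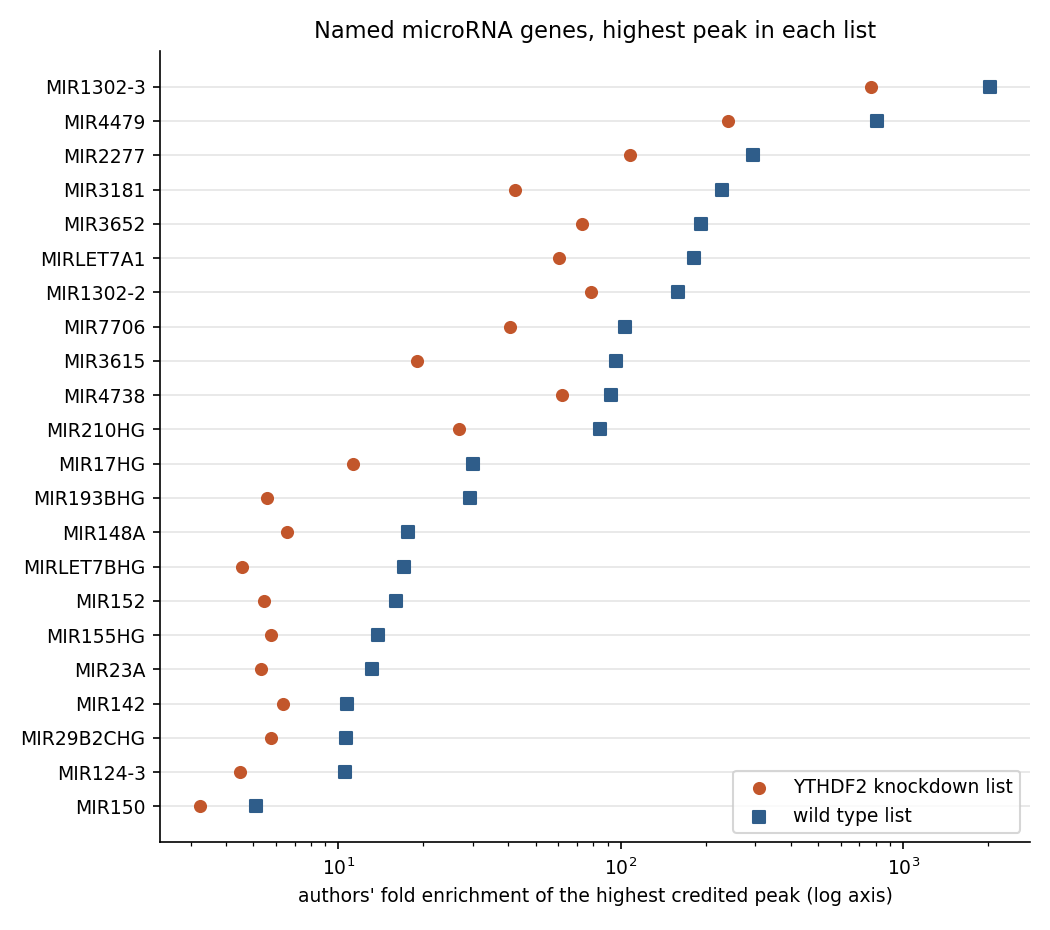
Authors' fold enrichment (log axis) of the highest peak credited to each of 22 named microRNA genes in the YTHDF2 knockdown list (circles) and the wild-type list (squares), with 1 value per list and no error. Folds are ranked within a list only: MIR1302-3 stands first in both, at 771 in KD and 2034 in WT, and MIR150 last in both, at 3.23 in KD and 5.11 in WT.

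Of 24 genes listed as promoting myeloma growth, 3 had a credited peak, and 2 of these, MIR17HG and MIR155HG, had one within 1 kb of the start in both lists. MIR17HG, host of the miR-17-92 cluster, had 1 broad peak over its start, of fold 11.3 in KD at chr13:91347248-91349356 and 30.0 in WT at chr13:91347283-91349296. The hairpin of MIR17 itself lies downstream of both peaks. MIR155HG, the host of the B-cell oncomiR miR-155, had 1 peak, at 170 bp from the credited start in KD (chr21:25562079-25562572, fold 5.78) and 145 bp in WT (chr21:25562054-25562485, fold 13.8). The lists place that start at 25561909 and RefSeq at 25562145, 236 bases further in, and both peaks span the RefSeq start. The remaining occupied gene, MIR221, had only a peak at 113694 bp in KD and another at 81134 bp in WT, and the 2 did not overlap. The remaining 21 genes, among them MIR21, the MIR106B cluster and the MIR181 genes, were credited with no peak in either list, and a peak credited to a protein-coding host gene there would not be counted. For comparison, 709 of 1913 RefSeq microRNA genes (37.1%) had any credited peak, 322 (16.8%) had one within 1 kb in at least 1 list, and 140 (7.32%) in both. Host genes such as MIR17HG and MIR155HG, which the fixed lists include, are not among these 1913. Of 88 host genes, 43.2% had any credited peak, 29.5% had one within 1 kb in at least 1 list and 15.9% in both.

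Of 17 B-cell and plasma-cell microRNA genes, 4 had a peak (23.5%, against 37.1% of RefSeq microRNA genes), and 3 of them, MIR142, MIR148A and MIR150, had one within 1 kb in both lists (17.6%, against 7.32%). MIR142, found throughout blood cells, lay under a wide peak at chr17:58330695-58333506 in KD (fold 6.38) and chr17:58330688-58333463 in WT (fold 10.8). MIR148A, which promotes plasma cell differentiation, had its peak upstream, at -283 bp in KD (chr7:25950296-25951762, fold 6.57) and -524 bp in WT (chr7:25950537-25951727, fold 17.6). MIR150, a marker of mature lymphocytes, had a narrow peak downstream of the start in KD, at 255 bp with a fold of 3.23 (chr19:49500339-49500618), whereas its peak spanned the hairpin in WT with a fold of 5.11 (chr19:49500414-49501216). MIR23A, first of the miR-23a-27a-24-2 cluster, had 4 peaks in KD and 7 in WT. Its 4 KD peaks lay between -4782 and -10554 bp and all overlapped WT peaks, while the WT peak over the hairpin (fold 4.08) had no KD counterpart. The remaining 13 genes had none.

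Of 36 genes on the tumour-suppressing list, 16 were credited with a peak (44.4%, against 37.1% of RefSeq microRNA genes), and 4 had one within 1 kb in both lists (11.1%, against 7.32%). These were MIR124-3, MIR152, MIR193BHG and MIR29B2CHG. Of them MIR193BHG and MIR29B2CHG are host genes, which the RefSeq shares leave out. Host genes as a group had a peak in 43.2% and one within 1 kb in both lists in 15.9%. The list mixes both kinds, so its shares are not read as an excess. Credited within 1 kb in KD only was MIR34AHG, and in WT only MIR124-1, MIR124-2HG, MIR203A and MIR34B. The MIR152 peak (fold 5.43 in KD at chr17:48037161-48037864 and 16.1 in WT at chr17:48037084-48037947) also held the start of COPZ2, the gene it lies in. MIR152 and MIR148A, whose 3p strands share the seed printed above, were thus both bound near the hairpin in both lists. MIR29B2CHG, host of miR-29b-2 and miR-29c, had fold 5.76 in KD at chr1:207868634-207869381 and 10.6 in WT at chr1:207868382-207869421. At MIR193BHG the start peak had a fold of 4.05 in KD, below the KD median of all peaks, and 29.3 in WT. A second MIR193BHG peak lay at -15024 bp in KD (fold 5.61) and -15464 bp in WT (fold 9.83).

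MIR34AHG, host of the p53 target miR-34a, had 3 KD peaks and no WT peak credited to it. Its 2 KD peaks within 1 kb (folds 4.74 and 3.91) both overlapped a WT peak of fold 12.5 credited to LNCTAM34A, so its place as KD only comes from crediting. The other KD peak, at chr1:9184000-9184333 (fold 7.41, at -1608 bp), overlapped no WT peak. MIR34B, another p53 target, had a WT peak of fold 9.82 over its hairpin at chr11:111512408-111513105, with a start of BTG4 at 22 bp, and no KD peak. The WT peak at MIR203A had a fold of 7.08. At MIR124-3, a brain microRNA, there were 3 KD peaks and 13 WT peaks, and the peak nearest the hairpin was 951 bp wide in KD (fold 4.38) and 3795 bp wide in WT (fold 10.5).

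Of 14 let-7 genes, 5 (35.7%) had a credited peak, and 3 had one within 1 kb in at least 1 list (21.4%, against 16.8% of RefSeq microRNA genes). Only MIRLET7BHG, a host gene and so outside that RefSeq count, had one within 1 kb in both lists. There the overlapping peaks had a fold of 2.76 in KD and 7.98 in WT, and a further WT peak within 1 kb had a fold of 8.35. The stronger MIRLET7BHG peak lay in an intron at -7657 bp in KD (fold 4.57) and -7540 bp in WT (fold 17.1). In both lists it held a start of LOC124905135, which RefSeq classes as protein-coding. The overlapping peaks near the MIRLET7BHG start were 918 bp (KD) and 0 bp (WT) from a start of the same gene. MIRLET7B had 3 KD peaks and 10 WT peaks, and MIRLET7A3 had none in KD and 8 in WT. Together with MIRLET7BHG, on the same stretch of chromosome 22, 18 of 23 WT peaks (78.3%) had no KD counterpart, against 70.9% of all WT members. MIRLET7E had 1 WT peak of fold 4.50 over its hairpin, 396 bp from a start of SPACA6. Host genes as a group numbered 88, of which 38 had a peak (43.2%), 14 within 1 kb in both lists (15.9%), 3 in KD only and 9 in WT only. Among 5918 RefSeq lncRNA genes with a name other than LOC, 38.1% had a peak and 13.6% had one within 1 kb in both lists.

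**Figure D3:**
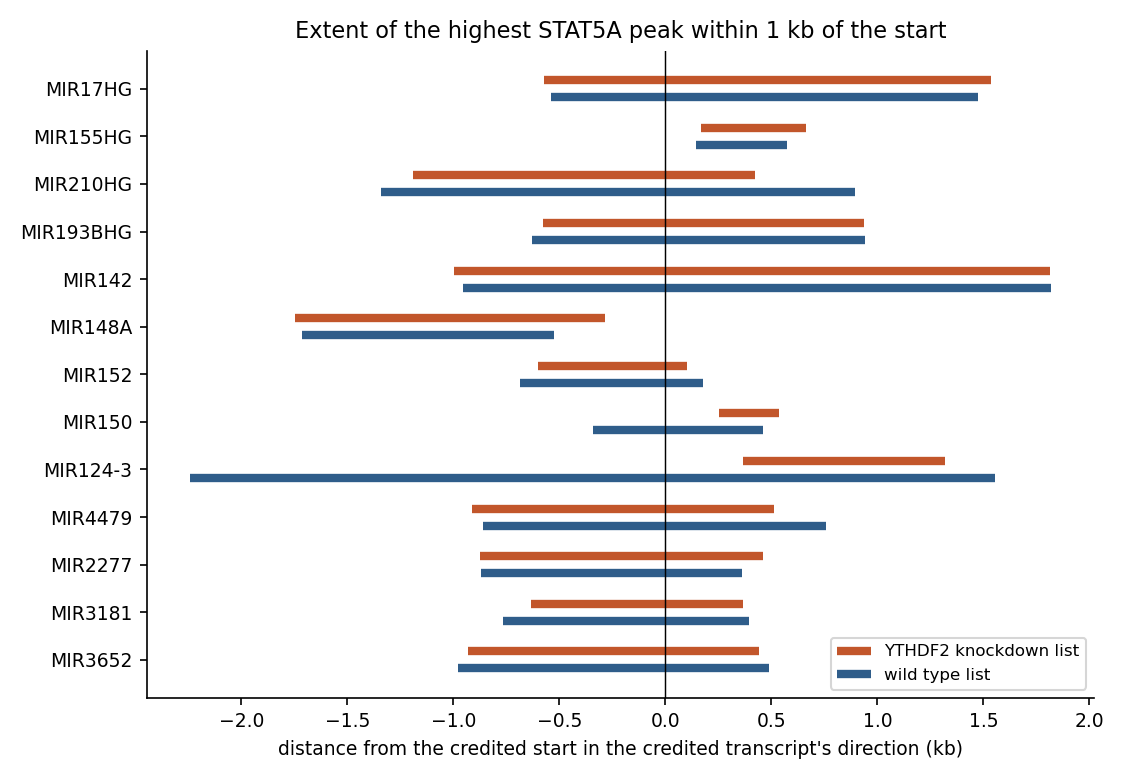
Extent of the highest peak within 1 kb of the credited start for 13 named microRNA genes, as distance from that start (kb, positive along the credited transcript), in the YTHDF2 knockdown list (upper bar of each pair) and the wild-type list (lower bar). The bars of a pair overlap for every gene shown; MIR155HG lies downstream of the start that the lists credit, MIR148A upstream, and the MIR124-3 bar is 951 bp long in KD and 3795 bp in WT.

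Promoter windows from RefSeq (GRCh38.p14) were searched for TTCNNNGAA, which reads the same on both strands, and for CCAAT, on either strand, as a common promoter element. Each window runs from 250 bases before to 50 bases after the RefSeq gene start, which can differ from the start that the lists credit. Windows were found for 13 of the 14 host genes with a peak within 1 kb in both lists, and 9 were touched by a KD peak and 10 by a WT peak. TTCNNNGAA was in 1 of these 13 windows (7.69%), against 2689 of 35116 windows overall (7.66%), and CCAAT was in 5 (38.5%), against 34.6% overall. Among these 5, the windows of MIR193BHG and MIR29B2CHG had 0 bases under a KD or WT peak. For MIR29B2CHG the RefSeq start is at 207822703 and the start credited to its peaks at 207869150. Of 78 protein-coding windows within 1 kb of a near member shared between lists, 4 (5.13%) held TTCNNNGAA and 26 (33.3%) held CCAAT. With 13 host windows these shares are imprecise. A match is a string of letters and not a measured binding site.

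The only host gene window with TTCNNNGAA was that of MIR155HG, printed here with the match in capitals. The match lies at chr21:25562020-25562028, 125 bases before the RefSeq start and 111 bases after the start that the lists credit, and ends 50 bases before the KD peak begins and 25 bases before the WT peak begins, so neither peak covers it. The KD peak covers 116 of the 300 bases and the WT peak 141, at the window's 3′ end. No match to CCAAT was found in this window.
MIR155HG, chr21:25561895-25562194, plus strand: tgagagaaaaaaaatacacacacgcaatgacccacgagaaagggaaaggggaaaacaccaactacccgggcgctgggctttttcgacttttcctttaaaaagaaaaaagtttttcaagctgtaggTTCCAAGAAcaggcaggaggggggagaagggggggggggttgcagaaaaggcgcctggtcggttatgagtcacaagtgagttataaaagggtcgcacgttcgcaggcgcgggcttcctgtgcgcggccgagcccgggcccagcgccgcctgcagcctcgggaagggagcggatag

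The windows of MIR17HG and MIR210HG lay wholly under both peaks and are printed too, since these host genes had higher folds than MIR155HG. Each holds 1 CCAAT on the strand opposite to the gene, seen as ATTGG in capitals, beginning at -101 in MIR17HG and at -47 in MIR210HG relative to the RefSeq start. Their G and C content is 73.0% for MIR17HG and 80.0% for MIR210HG, against 56.0% for MIR155HG. Over all host gene windows it ran from 52.0% (MIR29B2CHG) to 80.0%. The window of MIR31HG, with folds of 3.29 in KD and 5.78 in WT, had 77.7% and no CCAAT. Whether fold goes with CCAAT or with G and C content was not tested.
MIR17HG, chr13:91347437-91347736, plus strand: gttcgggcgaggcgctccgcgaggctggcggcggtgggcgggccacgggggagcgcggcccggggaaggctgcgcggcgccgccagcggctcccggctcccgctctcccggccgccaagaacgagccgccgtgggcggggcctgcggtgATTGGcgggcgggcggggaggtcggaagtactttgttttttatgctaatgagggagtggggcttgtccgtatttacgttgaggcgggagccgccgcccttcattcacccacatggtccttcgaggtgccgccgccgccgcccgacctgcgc
MIR210HG, chr11:568408-568707, minus strand: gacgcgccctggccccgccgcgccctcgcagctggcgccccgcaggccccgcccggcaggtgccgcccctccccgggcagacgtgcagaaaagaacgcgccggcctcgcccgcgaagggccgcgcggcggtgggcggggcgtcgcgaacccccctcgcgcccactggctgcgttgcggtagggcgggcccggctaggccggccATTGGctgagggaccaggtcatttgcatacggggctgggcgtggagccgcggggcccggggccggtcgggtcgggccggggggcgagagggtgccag

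A larger share of KD than of WT peaks overlapped the other list, and the lists differ in length (31227 and 55269 peaks). How much of the difference goes with length was not tested. With the WT list reduced to the length of the KD list, the shares of members were 51.9% in KD and 46.7% in WT. Over all peaks they were then 67.1% in KD and 61.3% in WT. By an overlap of at least 1 bp, 623 of 933 KD members (66.8%, 63.6 to 69.8) overlapped a WT peak, against 77.1% of all KD peaks. Of the 2035 WT members, 592 (29.1%, 27.1 to 31.1) overlapped a KD peak, against 40.4% of all WT peaks. Among peaks credited to lincRNA and antisense genes the shares were 64.3% in KD and 37.4% in WT. Of the shared members, 612 KD peaks (98.2%) and 568 WT peaks (95.9%) overlapped a peak credited to the same symbol. Shared members had a median fold of 4.32, against 3.96 for the 310 unshared ones in KD, and of 7.67, against 5.08 for the 1443 unshared ones in WT.

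In KD the share fell with distance from the start. There 112 of 114 members spanning the credited start (98.2%) were shared, against 97.4% of all other KD peaks that spanned theirs. At 1 bp to 1 kb the share was 56 of 65 (86.2%, against 83.5%), at 1 to 10 kb 160 of 234 (68.4%, against 66.5%), at 10 to 50 kb 165 of 276 (59.8%, against 59.8%) and beyond 50 kb 130 of 244 (53.3%, against 53.6%). At equal distance, then, the KD members and the other KD peaks had nearly the same shares, and the lower share of KD members as a whole goes with their distance.

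In WT the share was high only for peaks that spanned the start. Of 232 WT members that spanned the credited start, 146 (62.9%, 56.4 to 69.2) were shared, against 77.5% of all other WT peaks that spanned theirs. Within 1 kb as a whole, 173 of 379 WT members (45.6%, 40.6 to 50.8) were shared, against 64.0% of all such WT peaks, whereas in KD it was 168 of 179 (93.9%), against 93.7%. Beyond 1 kb, 455 of 754 KD members (60.3%, against 60.7%) and 419 of 1656 WT members (25.3%, against 25.4%) were shared.

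The presence of a protein-coding start split the near members further. Within 1 kb of a credited start and outside chromosome 8, all 67 KD members that also lay within 1 kb of a protein-coding start were shared (against 95.9% of all such KD peaks), and 94 of the 104 that did not were shared (90.4%, against 87.7%). In WT, 74 of 81 members with a protein-coding start were shared (91.4%, 83.0 to 96.5, against 80.1%), and 93 of 279 without one (33.3%, 27.8 to 39.2, against 40.0%). Their median folds in WT were 12.0 with a protein-coding start and 6.15 without. Protein-coding starts accompanied 39.2% of near KD members, against 72.5% of all near KD peaks, and 22.5% of near WT members, against 59.6% of all near WT peaks. The choice of members by symbol, which leaves out peaks credited to protein-coding genes, lowers these shares of members. The WT members unshared near their start were thus mostly peaks away from protein-coding starts.

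**Figure D4:**
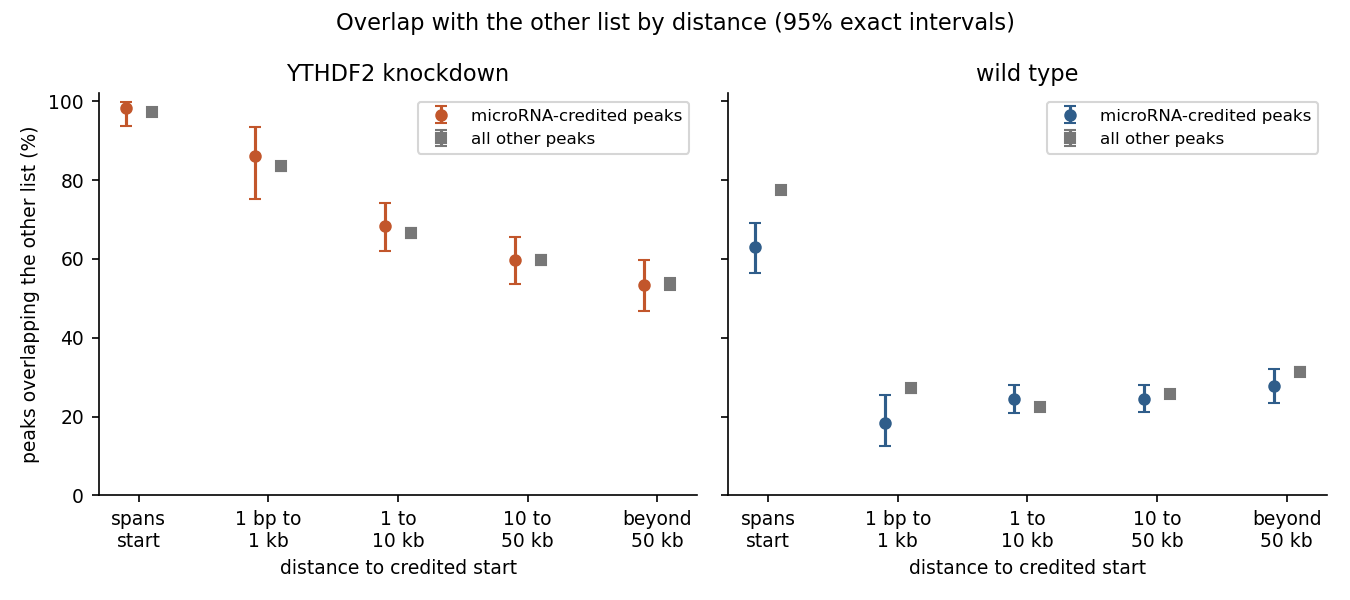
Percentage of peaks overlapping a peak of the other list, by distance to the credited start, for microRNA-credited peaks (circles) and all other peaks (squares) in YTHDF2 knockdown (left) and wild type (right), with exact 95% binomial intervals. In KD both sets fall together with distance, to 53.3% and 53.6% beyond 50 kb; in WT the microRNA-credited peaks that span the start stand at 62.9%, below the 77.5% of other peaks.

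Counted by gene, 451 symbols had any KD peak and 670 any WT peak, and the 374 in both lists were 82.9% of the KD symbols and 55.8% of the WT symbols. Within 1 kb of the start, 169 symbols had a KD peak and 333 a WT peak. The 154 in both were 91.1% of the KD symbols, against 95.2% over all genes, and 46.2% of the WT symbols, against 80.5% over all genes. In KD only there were 15, of which 8 had a WT peak overlapping the KD one but credited differently or placed farther than 1 kb, and the highest fold among the 15 was 5.19. WT only took in 179 genes, of which 21 had an overlapping KD peak and 158 did not. The highest of the 179 was MIR675, the microRNA within H19, with a WT fold of 36.9, and the KD peak that overlapped it (fold 4.55) was credited to H19. Its place among the WT-only genes thus comes from crediting.

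The 5 highest peaks of each list without any counterpart, of 310 such KD members and 1443 such WT members, all lay beyond 1 kb of the credited start, as did 299 of the 310 (96.5%) and 1237 of the 1443 (85.7%). In KD these were credited to MIR3675 (fold 7.60, chr1:16703073-16703352), MIR548AB (fold 7.42), MIR34AHG (fold 7.41), MIR548XHG (fold 7.38) and MIR383 (fold 7.04). In WT they were credited to MIR5692A1 (fold 18.9), MIR4265 (fold 17.2), MIR924HG (fold 15.9), MIR4452 (fold 13.2) and MIR1302-3 (fold 13.1, chr2:113602028-113602341). Of all KD members, shared or not, 80.8% lay beyond 1 kb of the credited start, and of all WT members 81.4%. The shares over all peaks were 50.1% in KD and 61.1% in WT.

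A small number of symbols held many members. A single peak was credited to 298 of 451 KD symbols and 346 of 670 WT symbols, whereas 10 or more peaks were credited to 16 KD symbols, which held 228 peaks (24.4% of KD members), and to 38 WT symbols, which held 732 (36.0% of WT members). MIR153-2 led in KD with 28 peaks between positions 157523073 and 157693916 of chromosome 7, of which 26 lay in the body of PTPRN2, a large neuroendocrine phosphatase gene, and 24 were shared. In WT it had 44 peaks, 20 of them shared. MIR595 had 20 KD peaks and 34 WT peaks, all within PTPRN2, and MIR1257 had 20 KD peaks and 41 WT peaks, of which 16 in KD and 35 in WT lay in CDH4. The largest WT group, MIR4669, had 50 WT peaks, 33 of them in RXRA, the retinoid X receptor gene, and 7 shared. MIR5189 had 34 WT peaks, all within ZFPM1, and 3 were shared. Among all members 66.8% were shared in KD and 29.1% in WT. Peaks in such a group share a locus and are not separate measurements of a microRNA gene, and none of the 28 KD peaks or 44 WT peaks of MIR153-2 was within 1 kb of its start.

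In 15 symbols with 10 or more peaks in each list, sharing varied widely. They held 217 KD peaks, of which 134 were shared, and 374 WT peaks, of which 123 were shared. Over all members the shares were 66.8% in KD and 29.1% in WT, and over all peaks 77.1% and 40.4%. MIR4472-1 had the lowest share in both lists, with 1 of 17 KD peaks (5.88%) and 1 of 22 WT peaks (4.55%), and MIR378C had 2 of 12 KD peaks (16.7%) and 2 of 14 WT peaks (14.3%). The highest share in KD was that of MIR5008, with 11 of 12 KD peaks (91.7%) and 10 of 24 WT peaks (41.7%), and in WT that of MIR1469, with 10 of 13 KD peaks (76.9%) and 10 of 14 WT peaks (71.4%). At MIR4472-1 and MIR378C, then, the lists placed nearly as many peaks as each other in the same region, but at different positions.

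RefSeq hairpins were also examined without regard to crediting. Of 1562 hairpins outside chromosome 8, a KD peak covered 123 (7.87%) and a WT peak 238 (15.2%). Both lists covered 115, KD only 8, WT only 123 and neither 1316. Hairpins covered in both lists had a median G and C content of 71.0% (quartiles 63.9 and 76.7), against 55.4% for KD only, 67.1% for WT only and 48.8% (41.7 and 56.8) for neither. A protein-coding start lay within 1 kb of 67 of the 115 hairpins covered in both lists (58.3%), of 12 of the 123 covered in WT only (9.76%) and of 44 of the 1316 covered in neither (3.34%). The part of base composition in these counts was not tested. Of the covered hairpins, 23 in KD and 47 in WT lay under a peak credited to another gene and so were not counted among the members.

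**Figure D5:**
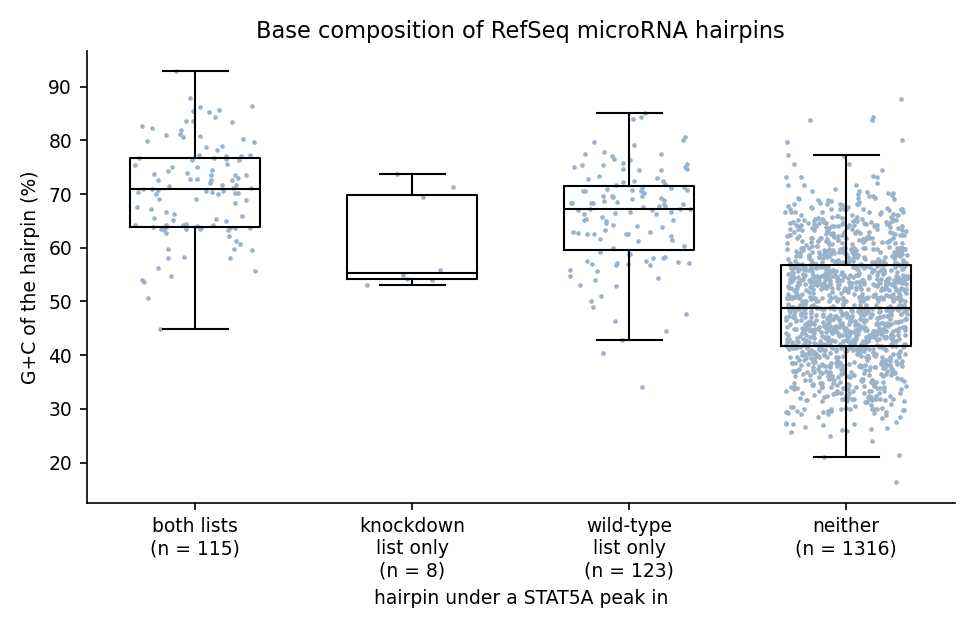
G and C content (%) of 1562 RefSeq microRNA hairpins outside chromosome 8, by whether a STAT5A peak covered them in both lists (115), in the knockdown list only (8), in the wild-type list only (123) or in neither (1316). Points are hairpins and boxes give median and quartiles; the medians are 71.0% in both lists, 55.4% in KD only, 67.1% in WT only and 48.8% in neither.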

How the data were processed

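The analysis starts from 1 annotated narrow peak list per condition. Per the submitters' processing notes, cutadapt, Trimmomatic, FastQC, Bowtie2 and MACS2 were used with hg38, without versions. Read depth, peak calling settings and the tool that credited peaks to genes are not given in the sources used here. Where titles (RNA) and design text (histone modifications) disagreed with the labels for antibody (STAT5a) and molecule (genomic DNA), those labels were followed. The fold enrichment is the authors' linear ratio per peak, and the q-value is the authors' own, deposited on a linear scale and under 0.05 in both lists.

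Members were taken by symbol. Overlap means at least 1 bp, checked with bedtools 2.31.1. The authors' distance runs from the nearest peak edge, negative upstream. RefSeq tables of GRCh38.p14 gave protein-coding starts, hairpins and sequences, and of 597 credited positions 529 (88.6%) were identical to a RefSeq hairpin. Chromosome 8 was not used for starts and hairpins. Shares have exact Clopper-Pearson 95% intervals and medians exact order-statistic intervals. No test was made between 2 single lists. The counting steps were tested on simulated data. Computations ran in Python 3.11.15 with scipy 1.17.1, pandas 2.3.3 and numpy 2.4.6.

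Members, gene lists and motifs were chosen with earlier results of these data known. Named were the 10 highest members of each list, the 5 highest without counterpart, the 3 highest over a hairpin, the 5 symbols with most peaks, and up to 8 members of each fixed list by fold. Named outside this rule, after their values were seen, were MIR675, MIR203A, MIR378C, MIR5008, MIR1469, MIR483, MIR551A, MIR5093 and the genes with shared seeds.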

Additional observations from a re-analysis of the deposited data

How the results depend on the processing

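No paired analysis was possible because each condition has 1 peak list and no result comes from a test. The results were recomputed under 13 alternatives, 1 of them chosen after seeing the data, which gave 109 values, of which 66 stayed within the main interval or within 1.5 times the main count and 43 moved. With q under 0.01 only the KD median fold moved, to 4.30. With q under 0.001 the KD values moved to 71.1% shared, 23.2% within 1 kb, 11.4% at a protein-coding start, 16.1% over the hairpin and a median fold of 4.61, and the WT values to 25.8% shared and a median fold of 5.90. A fold of at least 5 left 233 KD members (74.7% shared, 30.9% within 1 kb, 19.1% at a protein-coding start, 26.1% over the hairpin, median fold 5.81) and 1280 WT members (14.0% shared, 22.0%, 7.31%, 14.9% and 6.65), with 70 genes within 1 kb in both lists and 2 in KD only. With the WT list reduced to the length of the KD list, 51.9% of KD members and 46.7% of 972 WT members were shared. The reduced WT members lay within 1 kb in 26.1%, at a protein-coding start in 9.26% and over the hairpin in 18.1%, with a median fold of 7.28, and 26 genes were in KD only and 96 in WT only. Reciprocal overlap of 50% gave 37.8% of KD and 17.5% of WT members shared, and summits within 100 bp gave 30.9% of KD and 14.6% of WT members. Distance from the summit put 16.2% of WT members within 1 kb and 24 genes in KD only. A 3 kb window gave 27.1% of KD and 29.5% of WT members near the credited start and 11.3% of KD and 6.90% of WT members near a protein-coding start. Allowing 500 bp around the hairpin gave 16.0% in KD and 15.0% in WT.

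Members stayed below all peaks in sharing, nearness to both kinds of start and median fold in both lists under the q-value, fold and reduced-list alternatives. For protein-coding starts, the choice of members by symbol acts in the same direction under each alternative. Within 1 kb, sharing of KD members was 88.3 to 97.2%, against 89.3 to 97.0% of all such KD peaks, and that of WT members 27.7 to 65.0%, against 38.9 to 78.3% of all such WT peaks. Unknown depth limits every count of peaks found in 1 list only.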

Other observations

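Some microRNA symbols, chosen here after their values were seen, held few KD peaks and many WT peaks. MIR483, within the gene of insulin-like growth factor 2, had 1 KD peak (fold 3.84) and 20 WT peaks (highest fold 7.49), and 0 of the 20 WT peaks overlapped a KD peak. MIR551A had 2 KD peaks and 18 WT peaks, of which 2 were shared, and MIR5093 had 7 KD peaks and 32 WT peaks, of which 4 were shared. The highest WT fold at MIR551A was 10.2 and at MIR5093 it was 9.37. Members as a whole were also fewer in KD (933) than in WT (2035). Of all WT members 29.1% overlapped a KD peak, and of all WT peaks 40.4%.

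Chromosome 20 had the highest share of members among its peaks in both lists, 5.56% in KD and 7.77% in WT. Many of these members came from a single locus, since MIR1257 held 20 of the 41 in KD and 41 of the 127 in WT. The lowest share was 1.17% on chromosome 6 in KD and 1.93% on chromosome 13 in WT.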
